A study of Mus musculus with 20 samples.

Results

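Receptors through which adrenaline, vasopressin, angiotensin II, glucagon and insulin act on the liver were followed in mice under acute endoplasmic reticulum stress (ERS), together with the substrates that the insulin receptor phosphorylates. The set was named by gene symbol as Adra1a, Adra1b, Adrb1, Gcgr, Avpr1a, Agtr1a, Insr, Irs1 and Irs2, and it was chosen by a measured value, since Adra1b had fallen with tunicamycin far more in wild-type than in knockout livers. Of these 9 genes, 7 had at least 1 probeset listed under their symbol alone, out of 22180 genes measured in that way. Adra1a and Adrb1 had none and were not analysed here. The set having been selected on the response of Adra1b, its values are given as a description with no test, whereas the other 6 genes were tested.

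Livers came from adult male mice of the C57Bl6 background (C57BL/6J in the study's methods), in 4 groups of 5, with 1 array per mouse. They were Nfil3-/- mice (NFIL3 KO) given tunicamycin, NFIL3 KO mice given vehicle, wild-type (WT) littermates given tunicamycin and WT littermates given vehicle. Tunicamycin, which blocks the attachment of N-linked sugars to proteins folding in the endoplasmic reticulum and so sets off the unfolded protein response, was injected once at 1 µg/g body weight, the vehicle was a dextrose solution, and livers were taken after 8 h. NFIL3 is a transcriptional repressor that binds the same DNA element as the PAR-bZIP activators DBP, TEF and HLF, and in the knockout it is missing from the whole animal and not from hepatocytes alone. Values are log2 signals after robust multi-array averaging (RMA), so that a difference of 1 is a doubling, and a level of one gene cannot be set against that of another.

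The α1B-adrenergic, V1a vasopressin and AT1a angiotensin receptors couple to Gq proteins, whose phospholipase C releases inositol trisphosphate and calcium, and in hepatocytes the calcium activates phosphorylase kinase and glycogen breakdown. The glucagon receptor couples to Gs and raises cyclic AMP, which drives glycogen breakdown and gluconeogenesis through protein kinase A. The insulin receptor is a tyrosine kinase that acts through IRS1 and IRS2 and the PI3K and AKT kinases to oppose these programmes. All these receptors are glycoproteins of the plasma membrane.

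The genotype check came from Nfil3 itself. Its signal was 5.99, 4.95, 5.07, 4.83 and 5.40 in the tunicamycin-treated NFIL3 KO livers, against 7.95, 8.55, 7.67, 7.42 and 8.38 in the tunicamycin-treated WT livers, a difference of -2.75 ± 0.23 (SE, adjusted p = 4.09e-07, limma). With vehicle it was 5.41 ± 0.20 in NFIL3 KO and 6.44 ± 0.45 in WT (SD, n = 5 each). This difference of -1.03 ± 0.23 was not called (adjusted p = 0.227, limma). These groups did not overlap, but the share of all genes that did so with vehicle was not counted. In WT livers Nfil3 rose with tunicamycin by 1.55 ± 0.23 (adjusted p = 1.21e-05). The part of the gene that the knockout deletes was not compared with the probes.

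Arrays correlated within their group at 0.974 to 0.982 on average. The array of NFIL3 KO tunicamycin replicate 3 lay apart on the first principal axis, which held 39.4% of the variance: it scored 16.7, against 47.1 to 57.1 for the other 4 arrays of its group. Values without it are given where a result rests on it. Of 7 hepatocyte markers measured, 4 fell with tunicamycin in each genotype (Apoa1, Ttr, Apob and Asgr1), and the log2 summed signal of the list was 15.45 to 15.49 in NFIL3 KO livers with tunicamycin against 15.63 to 15.69 with vehicle, and 15.43 to 15.51 in WT livers with tunicamycin against 15.62 to 15.67 with vehicle. Among all genes, 13.7% were called lower with tunicamycin in each genotype. No marker of any of the 10 cell type lists was called between the genotypes. Over all genes only 0.0225% were called with vehicle and 0.243% with tunicamycin, so this says little about cell composition.

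Adra1b, which encodes the α1B-adrenergic receptor (chromosome 11, 43774605 to 43901250, GRCm38.p6), was close to its vehicle level with tunicamycin in NFIL3 KO livers and far below it in WT livers. Its signal was 7.85, 8.15, 7.64, 8.14 and 7.99 in NFIL3 KO livers with tunicamycin, against 8.16, 8.02, 8.47, 8.19 and 7.87 with vehicle. In WT livers it was 6.81, 6.90, 6.68, 6.99 and 6.76 with tunicamycin, against 8.02, 7.91, 8.15, 8.26 and 8.06 with vehicle. The 5 tunicamycin-treated WT livers lay below all other 15, and the 15 others formed one overlapping range. Over all genes, the treated and vehicle groups did not overlap, in either direction, in 20.9% of genes in NFIL3 KO and in 22.2% in WT, and the 2 genotypes did not overlap under tunicamycin in 1.49%.

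The difference between tunicamycin and vehicle was -0.19 ± 0.12 in the NFIL3 KO and -1.25 ± 0.12 in the WT (SE of the limma fit), so that the response in NFIL3 KO was 15.1% of that in WT. In linear terms WT livers had 2.38-fold less Adra1b signal with tunicamycin than with vehicle, with a gap of 0.92 between the highest treated and the lowest vehicle array. The response in NFIL3 KO minus that in WT was 1.06 ± 0.16. With vehicle the genotypes differed by 0.06 ± 0.12, and with tunicamycin NFIL3 KO livers stood 1.12 ± 0.12 above WT livers, which is 2.18-fold.

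Ordered by level, Adra1b averaged 8.14 ± 0.23 in NFIL3 KO with vehicle, 8.08 ± 0.14 in WT with vehicle, 7.95 ± 0.22 in NFIL3 KO with tunicamycin and 6.83 ± 0.12 in WT with tunicamycin (SD, n = 5 each). Neighbours in that order overlapped except at the last step. The small fall in NFIL3 KO depended on single arrays, being -0.11 without NFIL3 KO tunicamycin replicate 3 and -0.11 without NFIL3 KO vehicle replicate 3, while the gap between genotypes under tunicamycin was 1.20, and that between the responses 1.14, without NFIL3 KO tunicamycin replicate 3.

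Against the rest of the array, 328 genes fell further than Adra1b with tunicamycin in WT livers, whereas only 16 genes stood further above WT in the tunicamycin-treated NFIL3 KO livers and only 8 had a larger positive difference between the responses. These ranks describe a gene that was chosen for this difference and were not tested. In a whole-tissue sample such as this, fewer cells of a type and less RNA per cell cannot be told apart, which holds for every gene below. The hepatocyte marker sums given above were lower with tunicamycin in both genotypes, and such sums weigh the brightest markers most. Single markers of that list moved by unlike amounts. Alb differed by -0.04 in NFIL3 KO and -0.06 in WT, and the dimmer Asgr1 by -0.76 in NFIL3 KO and -0.73 in WT. The part of hepatocyte content in the result was not tested.

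**Figure D1:**
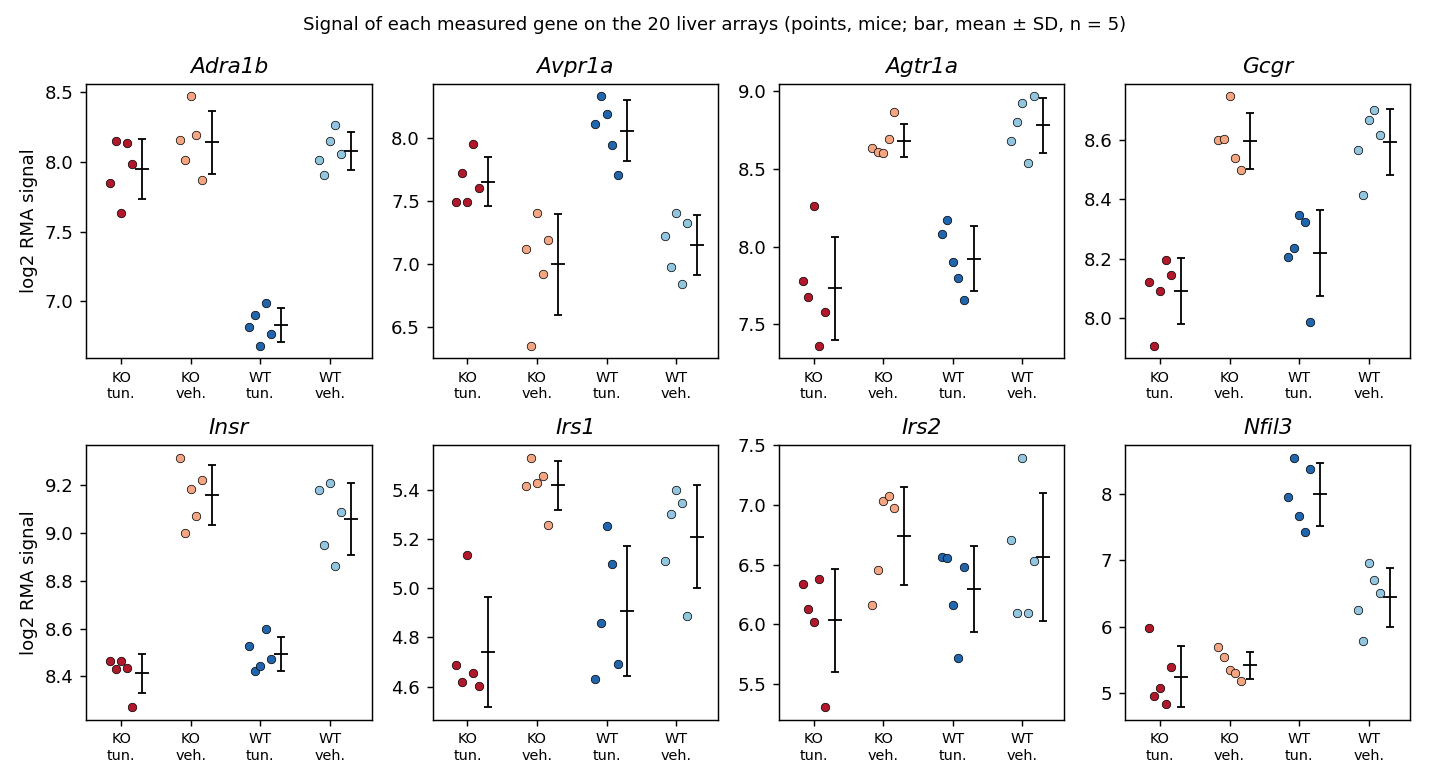
Log2 RMA signal (vertical axes, which differ between panels) of the 7 measured genes and of Nfil3 in each of the 20 livers, by group, from left to right NFIL3 KO with tunicamycin (tun.), NFIL3 KO with vehicle (veh.), WT with tunicamycin and WT with vehicle. Points are mice and bars are the mean ± SD (n = 5), and for Adra1b the WT tunicamycin livers at 6.68 to 6.99 lie below every other liver, while Avpr1a is higher and Agtr1a, Gcgr and Insr are lower with tunicamycin in both genotypes.

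RefSeq lists 2 transcription starts for Adra1b, and their promoter windows (250 bases before the start to 50 after it, GRCm38.p6, minus strand) are shown because this is the gene of the set whose signal differed least between tunicamycin and vehicle without NFIL3 and most with it. The windows are of unlike composition. The first, at chr11:43901188-43901487, is 42.3% G and C with 3 CG dinucleotides, and the second, at chr11:43836440-43836739, is 71.3% G and C with 28, against a median of 52.7% G and C over all 32851 windows. Capitals mark the CG dinucleotides.
Adra1b, upstream start: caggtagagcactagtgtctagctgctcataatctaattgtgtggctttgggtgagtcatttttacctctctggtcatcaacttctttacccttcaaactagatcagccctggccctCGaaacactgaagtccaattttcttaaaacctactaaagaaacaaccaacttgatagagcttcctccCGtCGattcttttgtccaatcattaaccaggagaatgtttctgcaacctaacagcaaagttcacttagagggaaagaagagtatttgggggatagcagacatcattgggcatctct
Adra1b, downstream start: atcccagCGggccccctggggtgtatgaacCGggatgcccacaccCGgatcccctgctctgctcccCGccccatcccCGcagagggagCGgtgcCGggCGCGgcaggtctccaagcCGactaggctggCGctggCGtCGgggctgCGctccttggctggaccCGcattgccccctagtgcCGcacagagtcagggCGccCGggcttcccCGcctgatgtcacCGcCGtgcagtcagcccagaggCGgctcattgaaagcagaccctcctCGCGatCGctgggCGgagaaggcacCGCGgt
Neither window holds, on either strand, the D-box letters that NFIL3 and the PAR-bZIP factors bind, searched as TTATGTAA (in 0.938% of all windows) and as TTACGTAA (0.119%). Nor does either hold the cyclic AMP response element TGACGTCA (1.79%), the FOXO and FOXA core TGTTTAC (3.65%), the ATF4-C/EBP element searched as TGATGCAAT (0.192%) and TTGCATCA (0.895%), or CCACG, the part bound by ATF6 and XBP1 in the ERS response element (32.8%). This says only that these letters are not in these windows. The array has 1 probeset for Adra1b, so the starts could not be told apart.

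The genes whose signal followed that of Adra1b most closely were found by the root mean square difference of log2 signals over the 20 arrays, each gene centred on its own mean, among 18813 genes. The nearest was Gsta3, a glutathione S-transferase, at 0.284. Its difference between tunicamycin and vehicle was -0.55 without NFIL3 and -1.36 in WT livers. Wbp1l (0.287) and Dapk1, a calmodulin-dependent death-associated kinase (0.291), came next, followed by Naa60, an N-terminal acetyltransferase (0.312), and Marveld1 (0.317). All 5 moved further with tunicamycin in NFIL3 KO than Adra1b did, between -0.39 for Naa60 and -0.74 for Marveld1, against -0.86 and -1.54 for the same genes in WT livers.

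**Figure D2:**
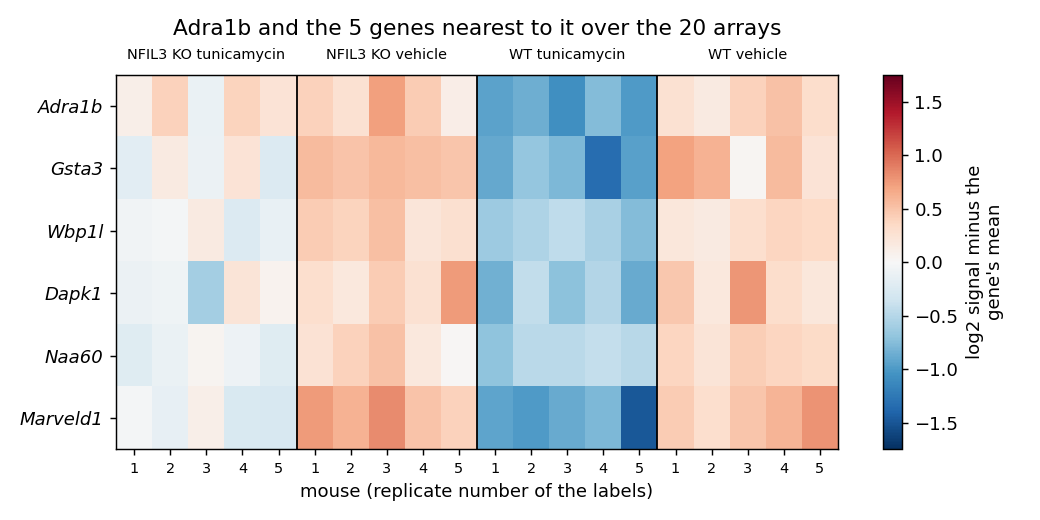
Log2 signal minus the gene's own mean (colour) for Adra1b and the 5 genes nearest to it (rows) on each of the 20 arrays (columns, in 4 groups of 5 mice). All WT tunicamycin columns lie below the gene's own mean, and below the other 3 groups' columns in every row but that of Dapk1, where NFIL3 KO tunicamycin replicate 3 is lower than 2 of them.

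With tunicamycin, 1 of the 6 tested genes rose and 5 fell in NFIL3 KO livers, and 1 rose and 3 fell in WT livers, at an adjusted p under 0.05 (limma, Benjamini-Hochberg over all genes). Over all genes, 13.5% were called higher and 13.7% lower in NFIL3 KO, and 13.7% higher and 13.7% lower in WT. The median difference of the 6 genes was -0.69 for NFIL3 KO and -0.34 for WT livers, against -0.03 over all genes in each genotype. For none of the 6 was the difference between the genotypes' responses called (0.00902% of all genes were), nor did any reach an unadjusted p under 0.05 for it.

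Avpr1a, the V1a vasopressin receptor, was the gene that rose (chromosome 10, 122448499 to 122453453). Its signal was 7.49, 7.72, 7.49, 7.95 and 7.60 in NFIL3 KO livers with tunicamycin, against 7.12, 6.35, 7.40, 6.92 and 7.19 with vehicle. WT livers had 8.11, 8.33, 8.19, 7.94 and 7.71 with tunicamycin, against 7.22, 6.98, 7.40, 6.84 and 7.32 with vehicle. Treated and vehicle livers did not overlap in either genotype, which held for 20.9% of all genes in NFIL3 KO and 22.2% in WT. The rise was 0.66 ± 0.16 in NFIL3 KO (1.57-fold, adjusted p = 0.00332) and 0.91 ± 0.16 in WT (1.87-fold, adjusted p = 0.000126).

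The response of Avpr1a in NFIL3 KO minus that in WT was -0.25 ± 0.23. Under tunicamycin its signal was 7.65 ± 0.19 in NFIL3 KO and 8.06 ± 0.24 in WT (SD, n = 5 each), a difference of -0.40 ± 0.16 that the adjustment over all genes did not call (unadjusted p = 0.0213, adjusted p = 0.467). By the same measure of likeness the genes nearest to Avpr1a were Cep78, which encodes a centriolar protein (0.211), and Dynll1, a dynein light chain (0.217). Both were higher with tunicamycin in both genotypes, Dynll1 by 0.71 in NFIL3 KO and by 1.03 in WT livers.

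Agtr1a, the AT1a receptor for angiotensin II (chromosome 13, 30336356 to 30382867), went the other way although its receptor couples to the same G proteins. Its signal was 7.78, 7.68, 8.26, 7.36 and 7.58 in NFIL3 KO livers with tunicamycin, against 8.64, 8.61, 8.60, 8.69 and 8.87 with vehicle. The signal in WT livers was 8.08, 8.17, 7.90, 7.80 and 7.66 with tunicamycin, against 8.68, 8.80, 8.92, 8.54 and 8.97 with vehicle. All treated livers lay below all vehicle livers of their genotype. Of all genes, 20.9% in NFIL3 KO and 22.2% in WT had no such overlap, in either direction. The highest treated liver in NFIL3 KO was replicate 3, the array that stood apart.

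Agtr1a fell by 0.95 ± 0.14 in NFIL3 KO (1.93-fold, adjusted p = 6.54e-06) and by 0.86 ± 0.14 in WT (1.81-fold, adjusted p = 2.39e-05). Without NFIL3 KO tunicamycin replicate 3 the difference in NFIL3 KO was -1.08. The responses differed by -0.09 ± 0.19 (NFIL3 KO minus WT). Pdp2, a phosphatase that activates pyruvate dehydrogenase (0.161), and Dglucy, D-glutamate cyclase (0.162), were the nearest genes, with differences of -0.86 and -0.94 in NFIL3 KO and of -0.83 and -0.86 in WT livers.

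Gcgr, the glucagon receptor (chromosome 11, 120529185 to 120538989), fell in both genotypes by a smaller amount. Its signal was 8.12, 7.91, 8.09, 8.20 and 8.14 in NFIL3 KO livers with tunicamycin, against 8.60, 8.60, 8.75, 8.54 and 8.50 with vehicle. In WT livers it was 8.21, 8.24, 8.35, 8.32 and 7.98 with tunicamycin, against 8.57, 8.42, 8.67, 8.70 and 8.62 with vehicle. The groups did not overlap, with a gap of 0.30 in NFIL3 KO and of 0.07 in WT. Such separation held for 20.9% of all genes in NFIL3 KO and 22.2% in WT.

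The fall of Gcgr was 0.51 ± 0.09 in NFIL3 KO (1.42-fold, adjusted p = 8.55e-05) and 0.37 ± 0.09 in WT livers (1.30-fold, adjusted p = 0.0020), and the responses differed by -0.13 ± 0.12. Rfng, a fucose-modifying glycosyltransferase (0.0848), and Tgfbrap1 (0.0953) followed it most closely. Rfng differed between tunicamycin and vehicle by -0.36 in both genotypes.

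Insr, the insulin receptor (chromosome 8, 3150922 to 3279649), was the tested gene with the smallest adjusted p in each genotype. Its signal was 8.46, 8.43, 8.47, 8.44 and 8.27 in NFIL3 KO livers with tunicamycin, against 9.32, 9.0, 9.18, 9.07 and 9.22 with vehicle. WT livers had 8.53, 8.42, 8.45, 8.60 and 8.47 with tunicamycin, against 9.18, 8.95, 9.21, 8.86 and 9.09 with vehicle. Treated livers lay below vehicle livers throughout, and 4 of the 5 treated NFIL3 KO livers lay within 0.04 of each other. The treated and vehicle groups were apart in 20.9% of all genes in NFIL3 KO and 22.2% in WT.

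Insr fell by 0.75 ± 0.09 in NFIL3 KO (1.68-fold, adjusted p = 3.61e-07) and by 0.56 ± 0.09 in WT livers (1.48-fold, adjusted p = 1.60e-05). The responses differed by -0.18 ± 0.12. Its nearest gene was Arhgef12, a guanine nucleotide exchange factor for RhoA, at 0.0749, the closest match found for any of the 7 genes. Arhgef12 differed by -0.72 in NFIL3 KO and -0.60 in WT, and Wdfy3, an autophagy adaptor, came second at 0.0926.

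Irs1 and Irs2, the main insulin receptor substrates of liver, were called lower in NFIL3 KO and not in WT livers. The difference between those responses was tested and not called. Irs1 (chromosome 1, 82233105 to 82291439) had signals of 4.69, 4.62, 5.14, 4.65 and 4.60 in NFIL3 KO livers with tunicamycin, against 5.42, 5.53, 5.43, 5.46 and 5.26 with vehicle. In WT livers it had 4.63, 4.86, 5.26, 5.10 and 4.69 with tunicamycin, against 5.11, 5.30, 5.40, 5.35 and 4.89 with vehicle. The groups were apart in NFIL3 KO (as for 20.9% of all genes) and overlapped in WT, where 1 vehicle liver stood at 4.89.

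Irs1 fell by 0.68 ± 0.13 in NFIL3 KO (1.60-fold, adjusted p = 0.00023). In WT its difference was -0.30 ± 0.13 (unadjusted p = 0.0282, adjusted p = 0.0906), and the responses differed by -0.38 ± 0.18 (unadjusted p = 0.0514, adjusted p = 1.00). Irs1 is the mean of 2 probesets, and the difference between these was not tested. Probeset 17224878 fell by 0.79 ± 0.16 in NFIL3 KO (adjusted p = 0.0007) and by 0.52 ± 0.16 in WT (adjusted p = 0.0186), whereas the dimmer probeset 17214753 fell by 0.57 ± 0.18 in NFIL3 KO (adjusted p = 0.0274) and differed by -0.08 ± 0.18 in WT livers. The dimmer probeset had group means of 3.53 to 4.11, under the array medians of 4.65 to 4.77. Which transcripts the probesets read is not given in the sources used here.

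**Figure D3:**
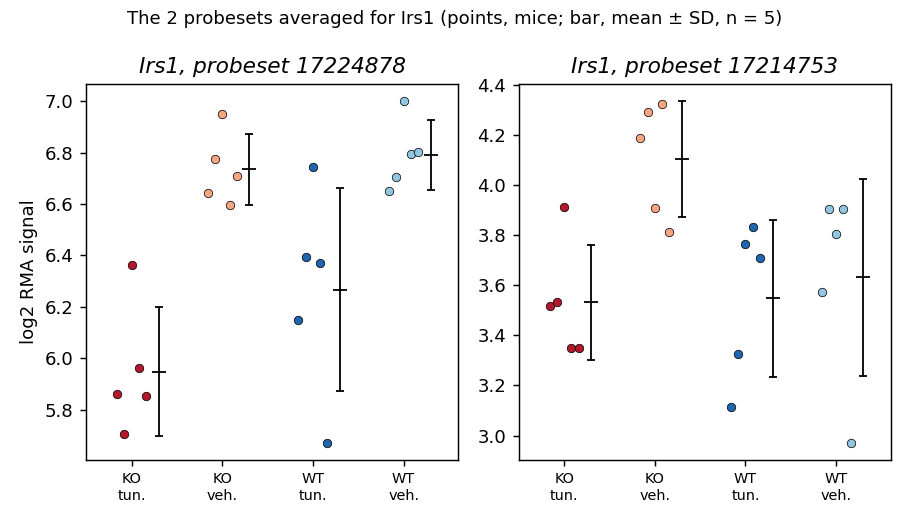
Log2 RMA signal (vertical axes, which differ between panels) of the 2 probesets averaged for Irs1 in each of the 20 livers, by group, with the mean ± SD (n = 5). In WT livers the brighter probeset averaged 6.27 with tunicamycin and 6.79 with vehicle, and the dimmer one 3.55 with tunicamycin and 3.63 with vehicle.

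Irs2 (chromosome 8, 10984681 to 11008929) varied most between mice. Its signal was 6.33, 6.13, 6.01, 6.38 and 5.30 in NFIL3 KO livers with tunicamycin, against 6.16, 6.45, 7.03, 7.08 and 6.98 with vehicle. In WT livers the values were 6.56, 6.55, 6.16, 5.71 and 6.48 with tunicamycin, against 6.71, 6.09, 7.40, 6.09 and 6.53 with vehicle. The groups overlapped in both genotypes.

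Irs2 was called lower in NFIL3 KO at a difference of -0.71 ± 0.25 (adjusted p = 0.0349) and not in WT livers, at -0.27 ± 0.25 (adjusted p = 0.496). The call in NFIL3 KO was lost without any 1 of 5 arrays, although the difference kept its sign. It was -0.53 (adjusted p = 0.129) without NFIL3 KO tunicamycin replicate 5, the liver at 5.30, and -0.70 (adjusted p = 0.0557) without NFIL3 KO tunicamycin replicate 3. Without NFIL3 KO vehicle replicates 3, 4 and 5, the 3 highest vehicle livers of that genotype, it was -0.63, -0.62 and -0.65 (adjusted p = 0.0877, 0.0935 and 0.0819). The responses differed by -0.44 ± 0.35. A second probeset that is also listed for 9530052E02Rik was not used for Irs2.

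The promoter windows of Irs1 and Irs2, the insulin receptor substrates of the set, are shown because both hold 1 short element. All 6 tested genes were called with tunicamycin in NFIL3 KO livers, so that call does not set these 2 apart. Whether the element has a part in their responses was not tested. Capitals mark the E-box CACGTG, the palindrome bound by basic helix-loop-helix factors such as USF and TFE3, and in Irs1 also CGTGG, the reverse strand of CCACG. The E-box was searched after these windows were seen.
Irs1, chr1:82291390-82291689, minus strand: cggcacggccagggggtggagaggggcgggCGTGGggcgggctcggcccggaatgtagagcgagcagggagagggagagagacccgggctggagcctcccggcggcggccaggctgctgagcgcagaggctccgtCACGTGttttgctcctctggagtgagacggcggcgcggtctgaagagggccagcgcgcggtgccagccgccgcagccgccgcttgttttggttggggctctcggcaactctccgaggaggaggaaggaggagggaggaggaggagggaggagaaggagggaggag
Irs2, chr8:11008880-11009179, minus strand: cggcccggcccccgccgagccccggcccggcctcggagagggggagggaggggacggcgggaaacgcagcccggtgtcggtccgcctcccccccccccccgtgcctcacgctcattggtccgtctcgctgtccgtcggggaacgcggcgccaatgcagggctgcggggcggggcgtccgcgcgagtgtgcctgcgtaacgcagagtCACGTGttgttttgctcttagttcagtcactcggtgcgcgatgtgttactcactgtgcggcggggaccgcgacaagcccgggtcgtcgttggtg
The E-box begins 115 bases before the start in Irs1 and 44 bases before it in Irs2, and 7.15% of all windows hold one. The longest runs that the 2 windows share are GTCACGTGTT, which includes the E-box, and TGTTTTGCTC. Each is 10 bases long and present in 0.0761% of all windows. These runs were picked as the longest match of these 2 windows. How long a run other pairs of windows share was not counted, so this share does not measure how alike the 2 are. None of the D-box, cyclic AMP, FOXO and ATF4-C/EBP letters given for Adra1b was found in the windows of Irs1, Irs2, Avpr1a or Gcgr, and CCACG was found only in that of Irs1. In all, 5 of the 7 measured genes had a window in the table used.

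**Figure D4:**
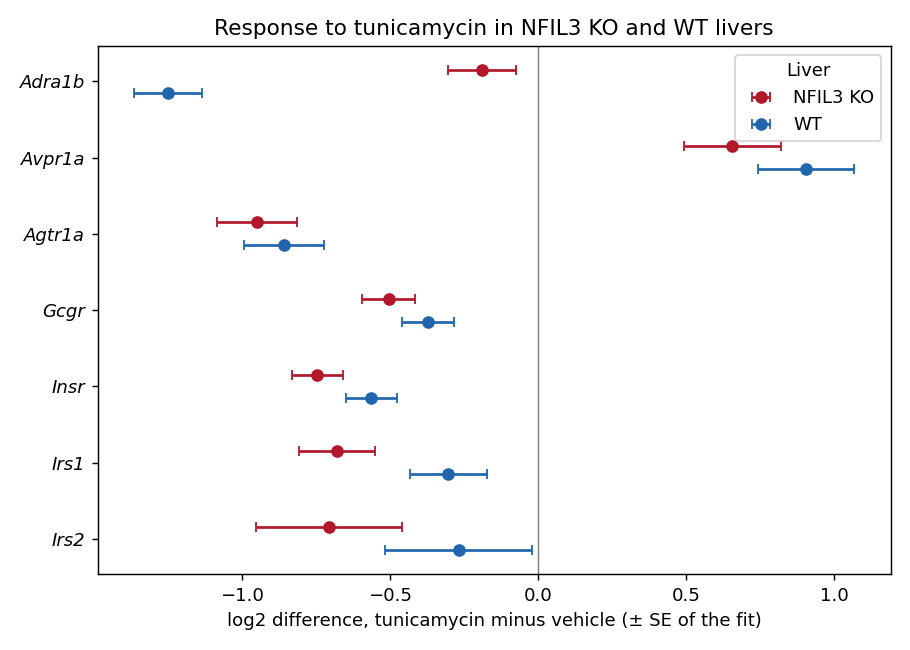
Log2 difference between tunicamycin and vehicle (horizontal axis, ± SE of the limma fit) for each of the 7 measured genes, in NFIL3 KO livers (upper point of each pair) and WT livers (lower point). The points of Adra1b, at -0.19 in NFIL3 KO and -1.25 in WT, are far apart, and the 2 points of each other gene lie within 0.44 of each other.

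Between the genotypes themselves none of the 6 tested genes was called, with vehicle (0.0225% of all genes were) or with tunicamycin (0.243%). At an unadjusted p under 0.05, 0 of the 6 passed with vehicle and 1, Avpr1a, with tunicamycin. The median difference of NFIL3 KO and WT livers over the 6 genes was 0.05 with vehicle and -0.18 with tunicamycin. With vehicle the differences ran from -0.16 ± 0.16 for Avpr1a to 0.21 ± 0.13 for Irs1.

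The genes around these receptors were described through 9 lists, each counted without the 7 genes. None of the listed genes was called between the genotypes or for the difference of the responses. Each list count with tunicamycin stands beside the shares over all genes. These were 13.5% called higher and 13.7% lower in NFIL3 KO, and 13.7% higher and 13.7% lower in WT. No list was tested against these shares. Of the other adrenergic receptors only Adra2c was measured, and it was not called (-0.25 ± 0.20 in NFIL3 KO and -0.18 ± 0.20 in WT). Of 10 other receptors and enzymes of the vasopressin, oxytocin and angiotensin systems, 0 rose and 1 fell in NFIL3 KO and 0 rose and 2 fell in WT. Agt, the precursor of angiotensin II, fell (-0.93 ± 0.10 in NFIL3 KO and -0.80 ± 0.10 in WT), alongside Agtr1a. Agtr1b, the paralogue of Agtr1a, fell by 0.41 ± 0.12 in WT and had a difference of -0.25 ± 0.12 in NFIL3 KO livers. Adra2c and Agtr1b were dim. With vehicle Adra2c averaged 4.39 in NFIL3 KO and 4.25 in WT, and Agtr1b 4.55 in NFIL3 KO and 4.54 in WT. These means lie under the array medians of 4.65 to 4.77.

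Of 32 other hormone and growth factor receptors of liver, 2 rose and 16 fell in NFIL3 KO and 2 rose and 17 fell in WT livers, with a median difference of -0.26 in NFIL3 KO and -0.35 in WT. Those with the largest differences among the called genes of this list in WT livers are given first. S1pr1, a receptor for sphingosine phosphate, fell (-2.31 ± 0.14 in NFIL3 KO and -2.54 ± 0.14 in WT), and so did Erbb3, a neuregulin receptor (-2.21 ± 0.22 in NFIL3 KO and -1.71 ± 0.22 in WT). The purinergic receptor P2ry1 fell (-1.34 ± 0.24 in NFIL3 KO and -1.53 ± 0.24 in WT). Il6ra, the interleukin 6 receptor, fell (-1.25 ± 0.15 in NFIL3 KO and -1.50 ± 0.15 in WT). Egfr, the receptor for epidermal growth factor, was picked out after its values were seen: its difference was -0.18 ± 0.18 in NFIL3 KO and -0.96 ± 0.18 in WT, and that between the responses, 0.78 ± 0.26, was not called (adjusted p = 0.992).

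In the Gq and calcium arm, 4 of 18 genes rose and 4 fell in NFIL3 KO and 4 rose and 5 fell in WT livers. The subunits of phosphorylase kinase moved apart. Phkg2, its liver catalytic subunit, rose by 1.49 ± 0.11 in NFIL3 KO and by 1.73 ± 0.11 in WT. Phka2, its liver regulatory subunit, fell (-1.32 ± 0.10 in NFIL3 KO and -1.30 ± 0.10 in WT). Pygl, the liver glycogen phosphorylase that this kinase activates, fell (-0.85 ± 0.12 in NFIL3 KO and -1.07 ± 0.12 in WT), and Prkcz, an atypical protein kinase C that neither calcium nor diacylglycerol activates, rose by 1.32 ± 0.13 in NFIL3 KO and by 1.66 ± 0.13 in WT.

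In the Gs and cyclic AMP arm, 4 of 34 genes rose and 8 fell in NFIL3 KO and 3 rose and 7 fell in WT. Adcy6, an adenylyl cyclase, fell (-1.12 ± 0.11 in NFIL3 KO and -0.98 ± 0.11 in WT). Pde8a, a phosphodiesterase that breaks cyclic AMP down, fell (-0.76 ± 0.09 in NFIL3 KO and -0.90 ± 0.09 in WT). The inhibitory G protein subunit Gnai3 rose by 0.69 ± 0.09 in NFIL3 KO and by 0.78 ± 0.09 in WT. Prkar2a, a regulatory subunit of protein kinase A, fell (-0.56 ± 0.08 in NFIL3 KO and -0.77 ± 0.08 in WT).

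Of 14 genes that desensitise G protein-coupled receptors, 0 rose and 1 fell in NFIL3 KO and 2 rose and 1 fell in WT. Rgs16, which shortens Gi and Gq signals, fell (-2.44 ± 0.57 in NFIL3 KO and -2.21 ± 0.57 in WT). Of the kinases that phosphorylate active receptors, Grk3 rose by 0.61 ± 0.14 in WT, where its KO difference was 0.16 ± 0.14, and Grk6 rose by 0.33 ± 0.11 in WT, where its KO difference was 0.25 ± 0.11. These 2 differences in NFIL3 KO were not called.

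Downstream of the insulin receptor, 5 of 27 genes rose and 9 fell in NFIL3 KO and 6 rose and 6 fell in WT livers. Besides Prkcz, Rheb, the GTPase that activates mTORC1, rose by 0.96 ± 0.09 in NFIL3 KO and by 0.84 ± 0.09 in WT, and the adaptor Shc1 rose by 0.59 ± 0.10 in NFIL3 KO and by 0.67 ± 0.10 in WT. The docking protein Gab1 fell (-0.74 ± 0.12 in NFIL3 KO and -0.76 ± 0.12 in WT). These changes ran in both directions, as did those of the brakes on the pathway, of which 7 of 27 rose and 7 fell in NFIL3 KO and 7 rose and 9 fell in WT.

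Among the brakes, Trib3, a pseudokinase that binds AKT, rose by 3.84 ± 0.17 in NFIL3 KO and by 4.20 ± 0.17 in WT. Ddit4, an inhibitor of mTORC1, rose by 2.43 ± 0.21 in NFIL3 KO and by 1.63 ± 0.21 in WT livers, and the stress-inducible Sesn2, another inhibitor of mTORC1, rose by 1.68 ± 0.19 in NFIL3 KO and by 1.59 ± 0.19 in WT. Ptprf, a receptor tyrosine phosphatase that acts on the insulin receptor, fell (-2.26 ± 0.14 in NFIL3 KO and -1.89 ± 0.14 in WT).

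Of 17 transcripts that insulin, glucagon or cyclic AMP control, 6 rose and 7 fell in NFIL3 KO and 6 rose and 6 fell in WT. Srebf1, whose SREBP-1c form insulin induces, fell (-2.67 ± 0.24 in NFIL3 KO and -2.74 ± 0.24 in WT). Ppargc1a, a glucagon-induced coactivator of gluconeogenesis, fell (-2.70 ± 0.20 in NFIL3 KO and -2.63 ± 0.20 in WT). Igfbp1, which insulin represses and ERS induces, rose by 1.98 ± 0.48 in NFIL3 KO and by 2.06 ± 0.48 in WT, and Per1, a clock gene with a cyclic AMP response, rose by 1.82 ± 0.24 in NFIL3 KO and by 1.80 ± 0.24 in WT.

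**Figure D5:**
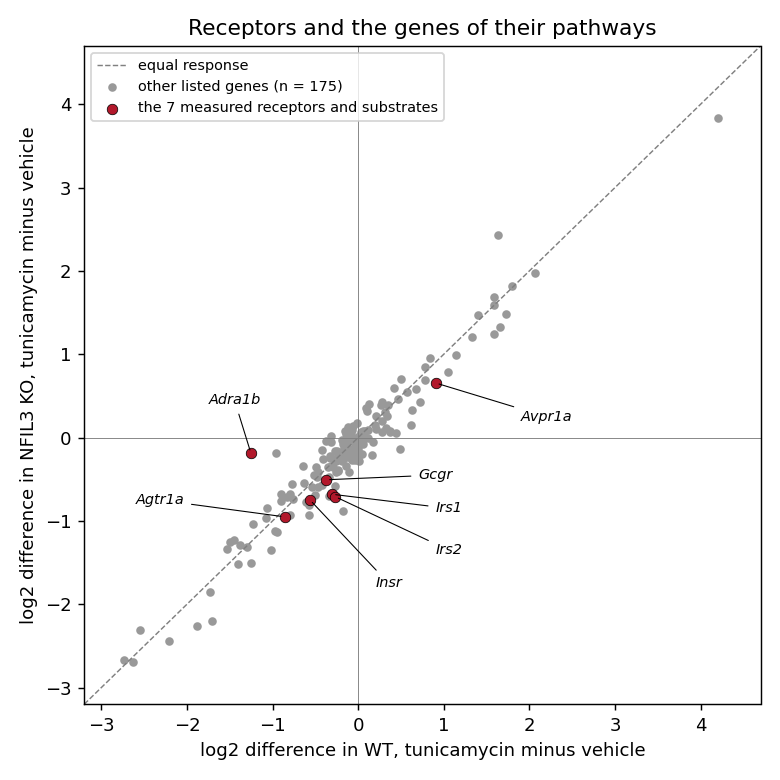
Log2 difference between tunicamycin and vehicle in NFIL3 KO livers (vertical axis) against that in WT livers (horizontal axis) for the 7 measured receptors and substrates (red, named) and the 175 other genes of the 9 lists (grey), with the line of equal response dashed. Adra1b, at -1.25 in WT and -0.19 in NFIL3 KO, lies off the line, and the highest grey point is Trib3, at 4.20 in WT and 3.84 in NFIL3 KO.

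Markers of the other cell types of liver were set beside these results. Their counts stand beside 13.5% of all genes called higher and 13.7% lower in NFIL3 KO, and 13.7% each way in WT. The lists were not tested against these shares. With tunicamycin, 0 of 8 Kupffer cell markers rose in NFIL3 KO livers and 2 rose in WT livers. These were Marco, by 1.59 ± 0.40 in WT, and Adgre1, by 0.62 ± 0.19 in WT. In NFIL3 KO Marco differed by 0.71 ± 0.40 and Adgre1 by 0.23 ± 0.19, and the differences of their responses were not called. The median difference of the Kupffer cell list was -0.05 in NFIL3 KO and 0.07 in WT. Of 8 markers of sinusoidal endothelium 2 fell in NFIL3 KO and 3 fell in WT. None of 9 stellate cell markers was called, and 1 of 5 smooth muscle markers (Acta2) fell in NFIL3 KO. Of 5 cholangiocyte markers 0 fell in NFIL3 KO and 1 fell in WT, Sox9, whose difference was -0.17 ± 0.13 in NFIL3 KO and -0.62 ± 0.13 in WT, and the difference of its responses was not called. The log2 summed signal of this list was 6.87 to 7.12 in NFIL3 KO with tunicamycin against 7.02 to 7.35 with vehicle. In WT it was 6.84 to 7.01 with tunicamycin against 7.11 to 7.27 with vehicle. The groups overlapped in NFIL3 KO and not in WT. Krt19, Epcam and Cldn7 had group means under the array medians of 4.65 to 4.77. The sum therefore weighs Sox9 and Krt7 most and is not separate from the Sox9 call. No marker of the neutrophil, T and B cell, nerve and Schwann cell or erythroid lists was called with tunicamycin. Most of these markers had group means near or under the array medians of 4.65 to 4.77, so the lack of calls says little. The erythroid list had 1 measured gene. The log2 summed signal of the endothelial list was 11.04 to 11.28 in NFIL3 KO with tunicamycin against 11.19 to 11.31 with vehicle, and 10.96 to 11.32 in WT with tunicamycin against 11.08 to 11.43 with vehicle. The part of other cells in the receptor results was not tested.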

How the data were processed

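RNA from 20 mouse livers (5 mice in each of 4 groups, taken from the sample titles) was measured by the authors on Affymetrix MoGene-2_0-st arrays, 1 array per mouse. The deposited values are log2 signals, which the authors made in Partek by RMA background correction, quantile normalization and median polish. They ran from 0.515 to 13.7, with array medians of 4.65 to 4.77, and were used as deposited. Probesets numbered 41345, of which 23521 had 1 gene symbol, 1820 several and 16004 none in the platform annotation. Those with 1 symbol were averaged into 22180 genes.

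A linear model with 1 mean per group (limma 3.58.1 under R 4.3.3, lmFit then eBayes) covered the 20 arrays and gave 5 contrasts, tested on both sides. P-values were adjusted by Benjamini-Hochberg over all genes and called under 0.05. On simulated data, 96% of 2-fold and 45% of 1.41-fold changes among 200 of 22180 genes were recovered in the WT comparison. Far more genes were called in the real WT livers (13.7% higher and 13.7% lower). No recovery is given for the comparisons between genotypes or of the responses, so these percentages do not describe them. Counts over the set cover the 6 tested genes, since 2 of the 9 had no probeset of their own and Adra1b was the gene that the set was chosen on. Genes, lists and tests were chosen with earlier results of these data known. From each list, up to 4 genes with the largest difference among those called with tunicamycin in WT are named. The number of arrays limits the precision, and no batch is given in the labels. Alternatives were probeset-level values, median centring, cyclic loess, brighter genes only, trended and robust moderation, fewer groups in the fit, array weights, no moderation, the replicate number as a block, and leaving out each array in turn.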

Additional observations from a re-analysis of the deposited data

Results flagged for a closer look

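In 28 groups of 5 arrays (7 genes in 4 groups), a lone array was looked for by the gap to its nearest neighbour as a share of the group's range, with 0.71 as the critical ratio, which chance passes in about 1 group in 20. It was passed by 2 groups, both of NFIL3 KO livers with tunicamycin. Insr had 1 liver at 8.27, below the other 4 at 8.43 to 8.47 (ratio 0.818). Irs1 had 1 liver at 5.14, above the other 4 at 4.60 to 4.69 (ratio 0.837), and this was replicate 3, the array that also stood apart over all genes. Without that array Irs1 differed by -0.78 between tunicamycin and vehicle in NFIL3 KO livers, against -0.68 with it. Both genes remained called in NFIL3 KO without these arrays.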

How the results depend on the processing

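The results were recomputed under 29 other settings, 9 that kept all arrays and 20 that left out 1 array. For the 6 tested genes, 850 of 864 values kept their side of the threshold. Of the rest, 9 were no longer called and 5 were newly called, and 0 called values reversed. Differences that were not called could change sign, as did that of Irs1 between genotypes with vehicle (0.21, and -0.06 for the brighter probeset). The count called with tunicamycin was 5 to 6 in NFIL3 KO and 4 to 5 in WT, and it was 0 between genotypes and for the difference of the responses under every setting.

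All 9 lost calls were those of Irs2 in NFIL3 KO. Beside the arrays named in the report, its adjusted p was 0.0606 at probeset level, 0.0518 with median centring, 0.0746 without moderation and 0.0513 with the replicate block. All 5 new calls were those of Irs1 in WT. Its adjusted p was 0.0186 for the brighter probeset, 0.0465 among brighter genes only, 0.0293 with the replicate block, 0.0314 without WT vehicle replicate 5 and 0.0265 without WT tunicamycin replicate 3. The cause was not tested.

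The difference of Adra1b was -1.30 to -1.21 in WT, -0.26 to -0.11 in NFIL3 KO and 0.99 to 1.15 for the difference of the responses when 1 array was left out. With all arrays kept it was -1.31 to -1.20 in WT, -0.23 to -0.15 in NFIL3 KO and 1.05 to 1.09 for the difference of the responses. Replicate numbers in the labels are shared by the groups, and what the number stands for is not given. Same-numbered arrays showed little shared deviation (correlations from -0.137 to 0.104, 2 of 30 over 0.1). This cannot settle whether the number marks a batch or a pairing. With the replicate block, 5 of the 6 genes were called in NFIL3 KO and 5 in WT.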
